A study of Mus musculus with 6 samples.

Results

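The genes described here handle cholesterol inside the cell. They comprise 3 genes of lysosomal cholesterol export (Npc1, Npc2 and Lipa), 2 of its synthesis (Hmgcs1 and Sqle), 2 of sterol sensing (Insig1 and Srebf2) and 1 of its efflux (Abca1). These 8 genes, of 19938 with a probe set of their own on the array, were listed by name while earlier results of the same comparison were known. The mean level over the 6 arrays would have decided between probe sets, but each of the 8 had only 1 probe set carrying its symbol alone, so no choice arose. None of the 8 is an uptake receptor, and uptake is covered below by other genes of the pathway.

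The study compared gastrocnemius, a calf muscle, of male mice aged 12 weeks with a homozygous Sparc knockout (3 mice) and of wild type males of the same age (3 mice). SPARC is a secreted, collagen-binding glycoprotein of the extracellular matrix. Both genotypes carry the strain label B6;129S-Sparctm1Hwe/J, a mixed B6 and 129S background, and the labels name no Cre driver, no treatment and no littermate pairing. The design text speaks of each mouse, so 1 array was taken as 1 mouse. Total RNA was measured on an Affymetrix whole-transcript array, and values are given as log2 intensity.

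Cells make cholesterol from acetyl-CoA through the mevalonate pathway and also take it up in lipoproteins, whose cholesteryl esters are split in the lysosome. Free cholesterol then leaves the lysosome through the NPC2 and NPC1 proteins and reaches the endoplasmic reticulum. When sterols are scarce there, the transcription factor SREBP-2 is released and raises the genes of synthesis and uptake; when they are plentiful, INSIG proteins hold it back. Oxysterols switch on efflux genes such as Abca1 through the LXR receptors. In skeletal muscle, cholesterol is a component of the sarcolemma and the transverse tubules.

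Sparc itself read 6.74, 6.46 and 5.83 in the knockout arrays, against 11.80, 11.73 and 11.87 in the wild type arrays. The limma change was -5.46 ± 0.20 (SE; adjusted p = 2.08e-05), in the direction the genotype labels give. Markers of muscle fibres, such as creatine kinase and the fast myosins, were present on every array, with a summed intensity of 61191 to 67877 in the knockouts and 69948 to 70481 in the wild types over 11 genes. The median intensity per array was 40.5 to 44.7. On the first principal component, knockout array 2 was the closest of its group to the wild types, at 2.45, with 19.8 to 26.5 for the other two knockouts and -16.8 to -15.8 for wild type arrays. For several genes the change without that array is also given. It was singled out as the knockout nearest the wild types, so larger differences without it can follow from that choice and add no support. Over all 16487 genes tested, 164 were called at an adjusted p of at most 0.05, which is 0.995%. Without knockout array 2, 1019 were called.

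The stretches before the start of 4 of the genes are given, of which Hmgcs1 and Srebf2 hold the sterol element core this pathway is known for. Lipa and Abca1, shown for the lysosome and efflux, hold neither that core nor an exact copy of the LXR repeat. RefSeq promoters on build GRCm38.p6 were used for 6 of the 8 genes, and the 250 bases before each start were searched on both strands. Npc1 and Sqle were left out, so nothing is said of motifs in their promoters. The motifs were TCACNCCA, the core of a sterol regulatory element, CACGTG, an E-box, CCAAT, a box often found beside sterol elements, and the LXR repeat, which is 2 copies of AGGTCA in the same direction with 4 bases between them. Matches were counted separately for each motif, and those printed do not overlap. Each sequence runs 5′ to 3′ on the strand of its gene, with motif matches in capitals.
Hmgcs1 (GRCm38.p6, chr13:119690101-119690350, plus strand): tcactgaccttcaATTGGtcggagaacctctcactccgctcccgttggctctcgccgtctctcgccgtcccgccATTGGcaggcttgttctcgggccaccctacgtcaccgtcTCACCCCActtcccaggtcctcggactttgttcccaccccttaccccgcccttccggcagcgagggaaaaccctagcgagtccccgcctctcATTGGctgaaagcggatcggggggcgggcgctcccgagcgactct
Srebf2 (GRCm38.p6, chr15:82147019-82147268, plus strand): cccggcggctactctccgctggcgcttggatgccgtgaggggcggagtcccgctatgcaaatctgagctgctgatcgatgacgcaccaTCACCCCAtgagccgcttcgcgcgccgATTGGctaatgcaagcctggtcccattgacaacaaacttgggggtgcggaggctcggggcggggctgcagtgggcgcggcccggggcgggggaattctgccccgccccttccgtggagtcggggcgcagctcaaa
Lipa (GRCm38.p6, chr19:34527475-34527724, minus strand): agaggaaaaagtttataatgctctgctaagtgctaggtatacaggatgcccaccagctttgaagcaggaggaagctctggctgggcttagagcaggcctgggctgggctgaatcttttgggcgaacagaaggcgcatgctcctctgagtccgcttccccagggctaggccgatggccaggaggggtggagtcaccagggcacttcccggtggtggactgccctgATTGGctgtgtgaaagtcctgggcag
Abca1 (GRCm38.p6, chr4:53159896-53160145, minus strand): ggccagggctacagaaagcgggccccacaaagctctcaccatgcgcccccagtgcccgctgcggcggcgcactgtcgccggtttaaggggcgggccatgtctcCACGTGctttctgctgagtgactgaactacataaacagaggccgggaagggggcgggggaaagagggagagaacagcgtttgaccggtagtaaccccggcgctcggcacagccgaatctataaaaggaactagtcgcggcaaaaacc

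Hmgcs1 held the sterol core starting at -137 relative to the gene start and Srebf2 held it at -162, and 3.67% of the 32851 promoters of the table hold it somewhere in this window. The Hmgcs1 window also held 3 CCAAT boxes and that of Srebf2 held 1, a box that 33.8% of promoters contain. Abca1 held an E-box at -147, which 6.02% of promoters hold, and Lipa held a CCAAT box at -26. Insig1 held an E-box at -101 and a CCAAT box, and Npc2 held 2 CCAAT boxes. The exact LXR repeat was in none of these 6 windows and in 0.0152% of all promoters. Repeats whose copies differ from AGGTCA were not searched, so these windows can still hold one. These matches describe letters only and say nothing of binding.

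Npc1, the lysosomal membrane protein that exports free cholesterol, was the one gene of the 8 that was called. It read 8.18, 8.42 and 8.11 in the knockout arrays and 9.29, 9.48 and 9.66 in the wild type arrays. The groups were separated by more than the spread within either, since the highest knockout lay well under the lowest wild type. The means were 8.24 ± 0.16 in knockouts and 9.48 ± 0.18 in wild types (SD, n = 3 each). The change of -1.24 ± 0.12 (SE; limma adjusted p = 0.00404), 2.37-fold lower in the knockouts, had the 21st smallest p of all genes. Calls in the lower direction covered 0.673% of all genes tested. The decrease of Npc1 was known when the genes were chosen, so its p is a description and supports nothing further.

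**Figure D1:**
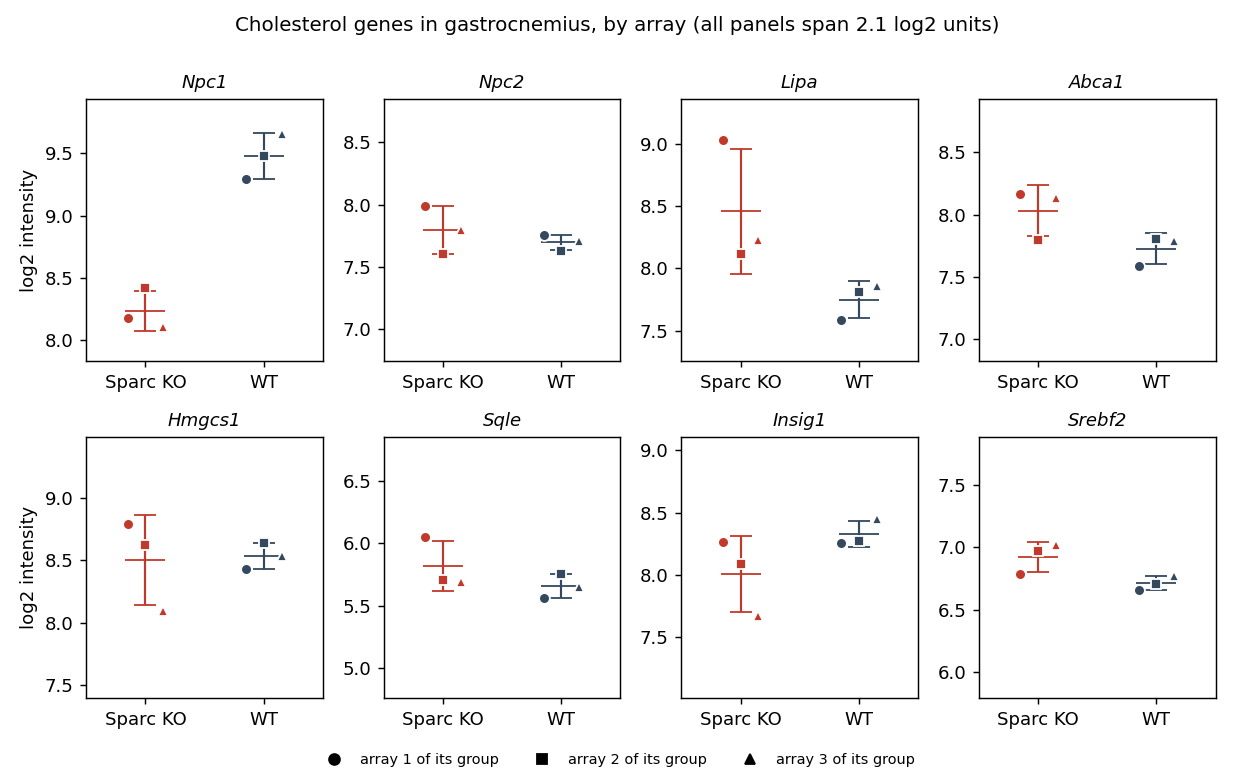
Log2 intensity (vertical axis) of the 8 cholesterol genes in each array, with Sparc knockouts on the left and wild types on the right of each panel; points are arrays, the long bar is the mean and the error bar the SD (n = 3 each). Npc1 lies between 8.11 and 8.42 in knockouts and between 9.29 and 9.66 in wild types, Lipa is highest in knockout array 1 at 9.03, and the synthesis genes overlap between genotypes.

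Npc2, the soluble lysosomal protein that hands cholesterol to NPC1, did not share that difference. It read 7.99, 7.60 and 7.80 in knockouts and 7.75, 7.63 and 7.71 in wild types, and the groups overlapped. Its change was 0.10, with a 95% interval of -0.16 to 0.36 (limma adjusted p = 0.719), and it was 0.00 without knockout array 1 and 0.19 without knockout array 2. That interval leaves out a decrease of the size seen in Npc1.

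Lipa, the lysosomal acid lipase that frees cholesterol from its esters, had a higher mean in the knockouts. It read 9.03, 8.11 and 8.23 in knockout arrays, against 7.58, 7.81 and 7.86 in wild type arrays. All 3 knockouts lay above all 3 wild types, and knockout array 1 stood far above the other two. The change was 0.71 ± 0.22 (SE), 1.63-fold higher, and it was not called (limma adjusted p = 0.147). Without knockout array 1 it was 0.42 (adjusted p = 0.103).

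Abca1, the plasma membrane transporter that passes cholesterol to apolipoproteins, read 8.17, 7.80 and 8.13 in knockouts and 7.59, 7.81 and 7.79 in wild types. Knockout array 2 lay at the level of wild type arrays 2 and 3, so the groups overlapped. The change was 0.31 ± 0.12 (SE), with an adjusted p of 0.241 by limma, and it was 0.42 without knockout array 2 (adjusted p = 0.0619).

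The synthesis genes showed no shared genotype difference. Hmgcs1, the cytosolic synthase of HMG-CoA, read 8.79, 8.62 and 8.10 in knockouts and 8.43, 8.64 and 8.53 in wild types. The wild type values fell inside the range of the knockouts. Its change was -0.03 (95% interval -0.42 to 0.35; limma adjusted p = 0.952), and it was 0.17 without knockout array 3. Sqle, squalene epoxidase, read 6.05, 5.71 and 5.69 in knockouts and 5.56, 5.76 and 5.65 in wild types. It overlapped as well, at 0.16 (95% interval -0.12 to 0.44; limma adjusted p = 0.546), and it was 0.04 without knockout array 1.

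Of the sensing genes, Insig1, which retains the SREBP escort protein in the endoplasmic reticulum, read 8.26, 8.09 and 7.67 in knockouts and 8.26, 8.28 and 8.45 in wild types. Knockout array 1 lay at the wild type level and knockout array 3 lowest. Its change was -0.32 ± 0.15 (SE; limma adjusted p = 0.304), and it was -0.15 without knockout array 3. Srebf2, which encodes SREBP-2, read 6.79, 6.97 and 7.02 in knockouts, against 6.66, 6.71 and 6.77 in wild types. The lowest knockout was only just above the highest wild type. Its change was 0.21 ± 0.10 (SE; limma adjusted p = 0.298). A second probe set that lists Srebf2 together with other genes was not used.

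Across the 8 genes, 1 was called lower and 0 were called higher, against 0.673% and 0.321% of all genes tested. All 8 passed the filter on dim genes. The genotypes did not overlap in 3 of them, Npc1 below and Lipa and Srebf2 above the wild types, where 13.8% of all genes tested lie wholly below and 11.1% wholly above. At an unadjusted p under 0.05, Npc1 was lower and Lipa and Abca1 were higher, against 10.3% of all genes lower and 8.16% higher. The median change of the 8 was 0.13, and that of all genes tested was 0.00. The knockout SD exceeded the wild type SD in 7 of the 8, Npc1 being the exception, and in 75.4% of all genes.

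The 50 other measured genes of the pathway, out of 61 listed, gave 0 calls by limma in either direction. At an unadjusted p under 0.05, 4 were higher and 9 lower, against 8.16% and 10.3% of all genes tested. Changes of the 50 genes ran from -0.50 in Osbpl6 to 0.72 in Apoe, with a median of -0.05. The groups did not overlap in 18 of them, 6 above and 12 below the wild types, against 11.1% and 13.8% of all genes. Under other settings 0 to 7 of them were called. The 7 came without knockout array 2 and comprised Apoe and Lrp1 higher and Fdft1, Hsd17b7, Vldlr, Osbpl6 and Cyp27a1 lower, in a setting that called 1019 genes in all, 6.18% of those tested.

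**Figure D2:**
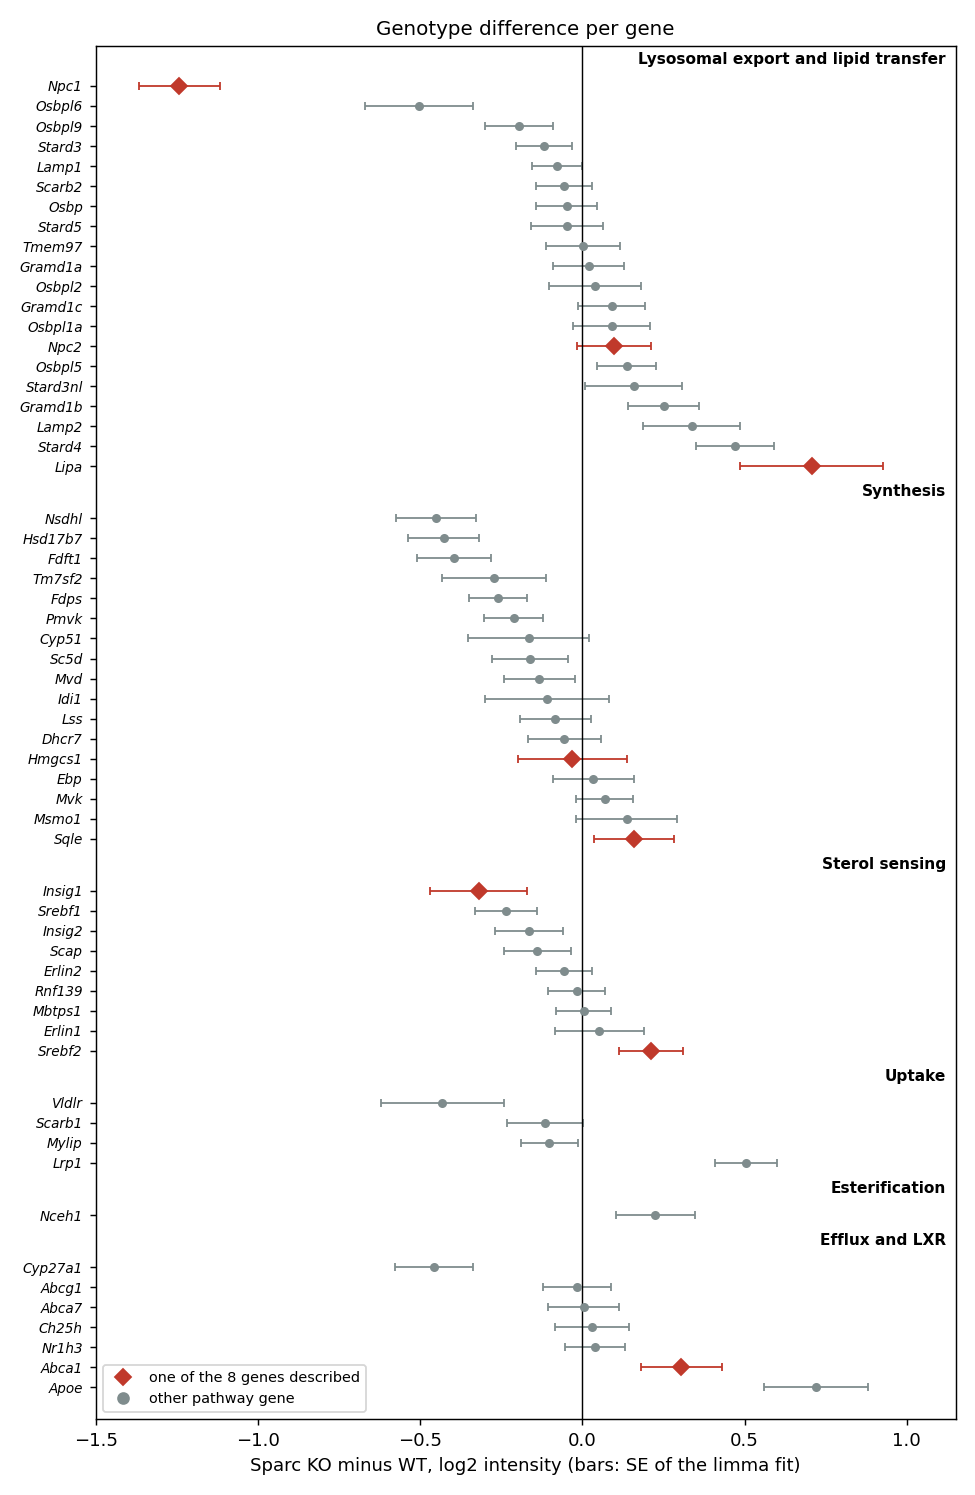
Difference in log2 intensity between Sparc knockout and wild type (horizontal axis) for the 8 genes described (diamonds) and 50 other cholesterol pathway genes (circles), grouped by role and sorted within each group; bars are the standard error of the limma fit. Npc1, at -1.24, lies apart from the other genes, which run from -0.50 to 0.72.

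Lower means were common among the other synthesis genes, but without a call. Of 15 measured, 12 had a negative and 3 a positive change, and the median was -0.16, where 8243 of all 16487 genes tested had a negative change. The unadjusted p was under 0.05 for 5 genes with lower and 0 with higher means, against 10.3% and 8.16% of all genes tested. In those 5 genes all knockouts lay below all wild types, as in 13.8% of all genes. A small p makes such a separation likely, so it adds little. Hsd17b7 and Nsdhl, both enzymes of the late demethylation steps, had changes of -0.43 ± 0.11 and -0.45 ± 0.12 (SE; limma adjusted p = 0.103 and 0.118). Hsd17b7 read 6.52, 6.70 and 6.46 in knockouts and 6.88, 6.95 and 7.13 in wild types. Fdft1, squalene synthase, was at -0.40 ± 0.11 (SE; limma adjusted p = 0.130), and read 9.71, 10.05 and 9.67 in knockouts, against 10.25, 10.16 and 10.21 in wild types. These values are of the brighter of its 2 probe sets, and with the mean of both it was at -0.49 (limma adjusted p = 0.112). Knockout array 2 came closest to the wild types, and without it Fdft1 was at -0.52 (adjusted p = 0.0157) and Hsd17b7 at -0.50 (adjusted p = 0.0479), while Nsdhl was at -0.42 and not called (adjusted p = 0.132). Fdps, which makes farnesyl diphosphate, was at -0.26 ± 0.09 (SE; limma adjusted p = 0.182) and was not called without that array either, at -0.29 (adjusted p = 0.146).

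The knockout arrays differed among themselves in synthesis genes, as they did in other lists. With Hmgcs1 and Sqle included, knockout array 1 was the highest and knockout array 3 the lowest of the knockouts in 8 of 17 synthesis genes, or 47.1%, against 19.0% of all genes tested. The same order held in 8 of the 17 other lysosomal and lipid transfer genes, 7 of 14 macrophage markers, 3 of 6 endothelial markers and 3 of 6 tendon markers, so it was not particular to synthesis. Insig1 had the same order. Msmo1, a methylsterol oxidase chosen after its values were seen, read 7.51, 7.08 and 6.85 in knockout arrays 1, 2 and 3, against 6.99 to 7.02 in wild types. Idi1, an isomerase of the mevalonate pathway named likewise, read 7.02, 6.57 and 6.17 in the knockouts on the brighter of its 2 probe sets, against 6.65 to 6.78 in wild types. For both genes the wild types lay within the range of the knockouts. Endothelial markers were also low in knockout array 3, where 6 genes averaged -0.43 relative to the wild type mean, against 0.30 and 0.29 in knockout arrays 1 and 2 and -0.05 to 0.06 in wild types. Their part in the order of the synthesis genes was not tested.

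Sensing genes other than Insig1 and Srebf2 had small differences. Of 7 measured, 0 were called by limma. At an unadjusted p under 0.05, 1 was lower and 0 higher, against 10.3% and 8.16% of all genes tested. That gene was Srebf1, which encodes the SREBP-1 proteins of fatty acid synthesis, at -0.24 ± 0.10 (SE; limma adjusted p = 0.240). Insig2 was at -0.16, Scap, the SREBP escort protein, at -0.14, and Erlin2 at -0.06. These values rested partly on single arrays, since without knockout array 3 they were -0.07, -0.09 and -0.03, and Scap was at -0.22 without knockout array 2.

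Among uptake genes, 4 of 7 listed were measured. Lrp1, a large endocytic receptor for lipoproteins and many other ligands, came nearest to a call among the 50 other genes. It read 9.27, 9.04 and 9.19 in knockouts, against 8.60, 8.66 and 8.73 in wild types. Every knockout lay above every wild type, and the change was 0.50 ± 0.10 (SE; limma adjusted p = 0.0545). It passed the threshold in 4 of 16 other settings, with changes of 0.45 to 0.57 over all of them. Vldlr, the VLDL receptor, read 9.59, 10.32 and 9.57 in knockouts and 10.18, 10.24 and 10.36 in wild types. Knockout array 2 lay within the wild type range, and the change was -0.43 ± 0.19 (SE; limma adjusted p = 0.271), or -0.68 without that array (adjusted p = 0.00957). Scarb1, the HDL receptor, was at -0.12 and Mylip, a ubiquitin ligase that degrades lipoprotein receptors, at -0.10. With 1 array left out Scarb1 ran from -0.20 without wild type array 1, and -0.18 without knockout array 2, to -0.04 without knockout array 3 or wild type array 3.

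Of 17 other lysosomal and lipid transfer genes, 0 were called by limma. At an unadjusted p under 0.05, 2 were higher and 1 lower, against 8.16% and 10.3% of all genes tested. Stard4, a cytosolic sterol carrier, read 6.52, 6.52 and 6.23 in knockouts and 5.85, 6.10 and 5.92 in wild types. The groups did not overlap, and the change was 0.47 ± 0.12 (SE; limma adjusted p = 0.102). Osbpl6, an oxysterol-binding protein relative, was at -0.50 ± 0.17 (SE; limma adjusted p = 0.165) and at -0.71 without knockout array 2 (adjusted p = 0.00976). Gramd1b, which carries cholesterol from the plasma membrane to the endoplasmic reticulum, was at 0.25 ± 0.11 (SE; limma adjusted p = 0.267). Lamp2, a structural lysosomal membrane protein, was at 0.34 ± 0.15 (SE; limma adjusted p = 0.281) and at 0.15 without knockout array 1.

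Of 6 efflux and oxysterol genes other than Abca1, 0 were called by limma. At an unadjusted p under 0.05, 1 was higher and 1 lower, against 8.16% and 10.3% of all genes tested. Apoe, the apolipoprotein that accepts cholesterol, read 11.33, 10.66 and 11.04 in knockouts, against 10.20, 10.43 and 10.25 in wild types. All knockouts lay above all wild types, with a change of 0.72 ± 0.16 (SE; limma adjusted p = 0.0767), and of 0.90 without knockout array 2 (adjusted p = 0.00894). Cyp27a1, the mitochondrial sterol hydroxylase, was at -0.46 ± 0.12 (SE; limma adjusted p = 0.110), and at -0.58 without knockout array 2 (adjusted p = 0.0153). Nr1h3, the receptor LXR alpha, was at 0.04 and Ch25h at 0.03, and no direction is given for them, since median centring alone moves the median of all genes to -0.04. Nceh1, a cholesteryl ester hydrolase and the one esterification gene measured of 3 listed, was at 0.23 (limma adjusted p = 0.367), and at 0.11 without knockout array 1.

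Lipa, Abca1 and Apoe are also expressed by macrophages, and macrophage markers differed between the same arrays. At an unadjusted p under 0.05, 10 of the 14 listed markers were higher, against 8.16% of all genes tested. All 14 markers had positive changes, and 0 were called by limma. Their summed intensity was 3694 to 6968 in knockouts and 2690 to 3002 in wild types, and none was at 0. Their mean log2 distance from the wild type mean was 1.18, 0.34 and 0.47 in knockout arrays 1, 2 and 3, against -0.04 to 0.05 in wild types. The same distances were 1.28, 0.36 and 0.48 for Lipa, against -0.17 to 0.11 in wild types. For Apoe they were 1.04, 0.37 and 0.75, against -0.09 to 0.14 in wild types. In Lipa and Apoe, as in the marker mean, array 1 was thus the highest and array 2 the lowest of the knockouts. This order was not particular to macrophage markers. It also held for Abca1 (0.44, 0.07 and 0.41), Lrp1 (0.61, 0.38 and 0.53) and the mean of the fibroblast markers (0.77, 0.16 and 0.75). The mean of the tendon markers (1.22, 0.26 and 0.17) had array 3 lowest. In a whole-muscle sample, a change in the number of such cells and a change in RNA per cell cannot be told apart, and the part of macrophages in these differences was not tested.

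**Figure D3:**
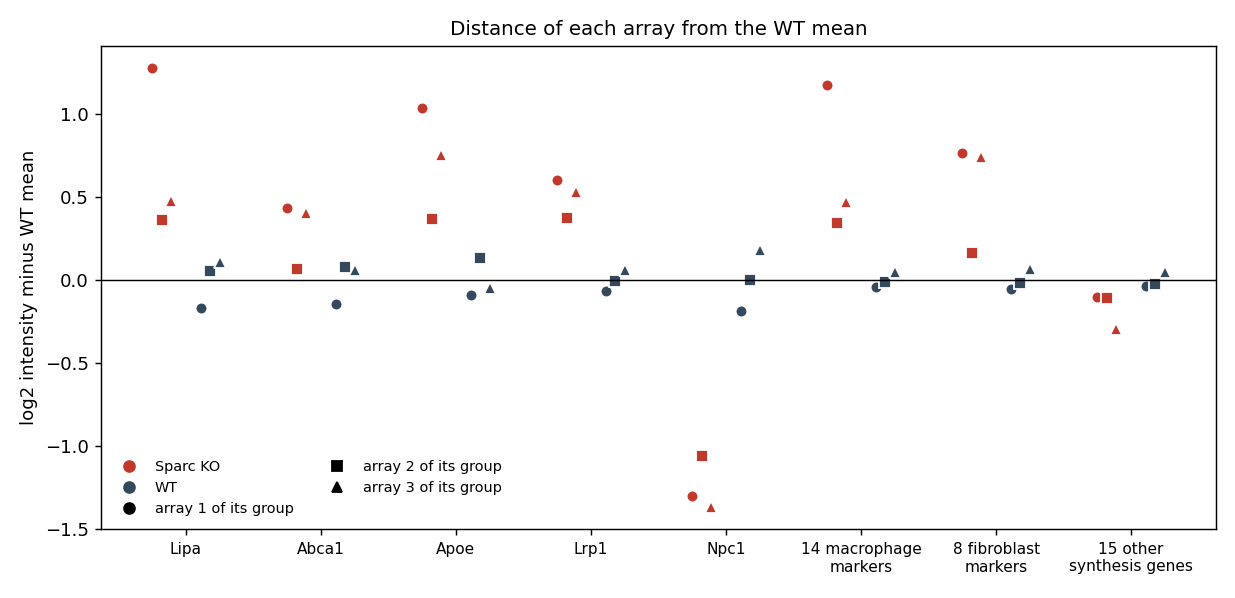
Log2 intensity of each array minus the wild type mean (vertical axis) for Lipa, Abca1, Apoe, Lrp1 and Npc1 and for the means of macrophage markers, fibroblast markers and other sterol synthesis genes; red points are Sparc knockouts, dark points wild types, and the shape gives the array. Lipa stands at 1.28, 0.36 and 0.48 in the knockouts and the macrophage markers at 1.18, 0.34 and 0.47, while Npc1 lies between -1.37 and -1.06 in all of them.

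Fibroblast markers had a summed intensity of 13189 to 17791 in knockouts and 11762 to 12870 in wild types over 8 genes. All 8 had positive changes, and 0 were called. At an unadjusted p under 0.05 by limma, 5 were higher, against 8.16% of all genes tested. Tendon markers summed to 2616 to 6295 in knockouts and 2323 to 3210 in wild types over 6 genes. All 6 changes were positive, 2 of them at an unadjusted p under 0.05 by limma (8.16% of all genes), and 0 were called. Adipocyte markers, over 10 of 11 listed genes, summed to 3349, 3138 and 2920 in knockout arrays 1, 2 and 3, against 2879, 4671 and 4846 in wild type arrays 1, 2 and 3. Wild type array 1 thus lay just under the knockouts and the other two well above them. Of the 10 changes, 9 were negative and 1 positive, and 0 were called. At an unadjusted p under 0.05 by limma, 3 were lower, against 10.3% of all genes tested. Retn, at -1.44, and Lep, at -1.15, had the largest decreases. Of the 11 muscle fibre markers, 9 had negative changes and 0 were called. In 7 of the 11 all knockouts lay below all wild types, against 13.8% of all genes tested. At an unadjusted p under 0.05 by limma, 2 were lower and 1 higher, against 10.3% and 8.16% of all genes. None of these lists had a gene at 0. Their part in the values of Npc1 and Lrp1 was not tested. Relative to the wild type mean, Npc1 was at -1.30, -1.06 and -1.37 in knockout arrays 1, 2 and 3, against -0.18, 0.00 and 0.18 in wild type arrays 1, 2 and 3. The mean of the adipocyte markers was at -0.44, -0.54 and -0.53 in the knockouts, against -0.56, 0.24 and 0.32 in the wild types. Both were lower in all knockouts than in wild type arrays 2 and 3, and both had wild type array 1 lowest and array 3 highest of the wild types. They differed in wild type array 1, where the adipocyte mean lay below all knockouts and Npc1 lay above all of them. Without wild type array 1, Npc1 was at -1.33.

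The values of Npc1 over the 6 arrays were most like those of Ces1d, Tmc7, Rasd2, Ppp1r1a and Tpbgl, in that order. Likeness was the Euclidean distance of log2 values, each taken relative to the wild type mean, and it ran from 0.19 to 0.43 for these 5 genes. Ces1d, a carboxylesterase that hydrolyses lipid esters, read 5.97, 6.13 and 6.05 in knockouts and 7.11, 7.32 and 7.37 in wild types. Its wild types stood in the same order as those of Npc1, with array 1 lowest and array 3 highest. Ces1d was picked by its likeness over these same arrays, so a shared order follows largely from that choice. The mean of the adipocyte markers had this order too, but not every marker did: Adipoq read 7.70, 9.14 and 9.10 in wild type arrays 1, 2 and 3. Rasd2, a Ras-family GTPase, read 6.75, 6.89 and 6.68 in knockouts and 7.98, 8.21 and 8.37 in wild types. Tmc7, of the transmembrane channel-like family, lay between 4.96 and 5.20 in knockouts and between 6.38 and 6.57 in wild types. Ppp1r1a, an inhibitor of protein phosphatase 1, and Tpbgl had changes of -1.17 and -1.10. Among the other 7 cholesterol genes Insig1 was the nearest to Npc1, at a distance of 1.65, with 1135 tested genes nearer. Lipa was the farthest, at 3.48.

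**Figure D4:**
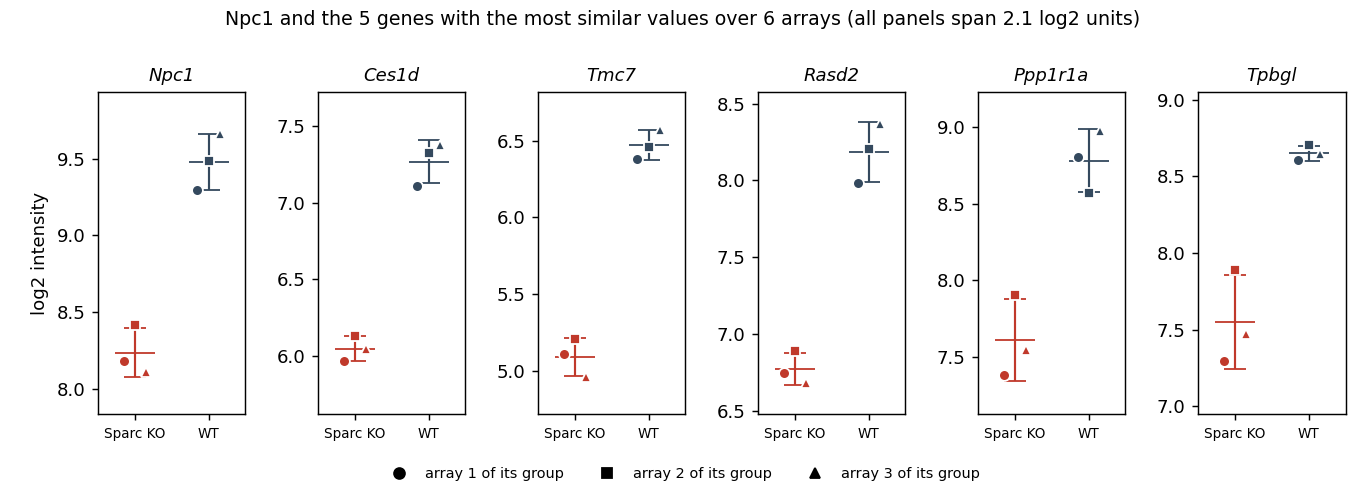
Log2 intensity (vertical axis) of Npc1 and of the 5 tested genes whose values over the 6 arrays were most like it, with Sparc knockouts on the left and wild types on the right; points are arrays, the long bar is the mean and the error bar the SD (n = 3 each). In all 6 genes every knockout lies below every wild type, which follows largely from the choice by likeness to Npc1. For Ces1d the values run from 5.97 to 6.13 in knockouts and from 7.11 to 7.37 in wild types.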

How the data were processed

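RNA of 3 Sparc knockout and 3 wild type gastrocnemius muscles was measured on 1 array each. The authors deposited probe-set intensity values on a linear scale, which per the submitters' processing notes come from RMA, run with the Affymetrix Expression Console (1.3.0.187). This method shrinks differences between dim values, and the number of arrays limits precision. The sources used here give no genome build for the probe sets.

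Log2 of the intensity was taken with no offset, where the design had assumed log2 values. Of 35556 probe sets, 21789 had 1 gene symbol in the platform annotation, 1621 had several and were not used, and 12146 were unnamed. The probe set with the highest mean stood for a gene. A filter on dim genes at the 25th percentile over probe sets, a log2 mean of 3.90, removed 3451 of 19938.

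Knockouts were tested against wild types by limma (3.58.1, R 4.3.3) in a linear model of genotype with trended eBayes, two-sided, with Benjamini-Hochberg adjustment over 16487 genes and a threshold of 0.05. SE and 95% intervals are the fit's. The procedure was tested on simulated data with 200 changed genes and independent normal noise at each gene's own spread. It recovered 27.6% of log2 changes of 0.5, 79.8% of 1 and 97.6% of 2, and 4.92% of calls were false. A change near 0.5 that was not called is therefore not shown to be absent. The cholesterol genes, the other pathway lists and the marker lists (macrophage, fibroblast, tendon, adipocyte, endothelial, muscle fibre) were chosen with earlier results of these data known. Named were the 8 genes, the pathway genes called or else the 4 with the smallest p in each list, and the 5 genes most like Npc1. The 16 alternatives covered scaling, filter, offset, probe-set averaging, variance model, array weights, a replicate block and leaving out each array. No 2 columns were identical (0 pairs), and 0 value columns were left unmapped.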

Additional observations from a re-analysis of the deposited data

How the results depend on the processing

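Npc1 kept its direction and its call under all 16 alternatives, with changes of -1.33 to -1.15 and adjusted p-values of 0.00205 to 0.0409, and so did Sparc, at -5.66 to -5.20. Leaving out 1 array gave -1.33 to -1.15 for Npc1. The number of genes called, 164, became 103 after median centring and 329 with array weights, and 27 to 1019 with 1 array left out. It was 32, 30 and 27 without wild type arrays 1, 2 and 3 and 1019 without knockout array 2. The number of other cholesterol pathway genes called, 0, became 1 after a second quantile normalization (Lrp1), 1 with the stricter dim filter (Lrp1) and 2 with array weights (Lrp1 and Nsdhl), and 0 to 7 with 1 array left out, the 7 being without knockout array 2. For each of these moves the cause was not tested. Of the other 7 cholesterol genes described, none was called under any alternative. Hmgcs1 ran from -0.17 to 0.17 with 1 array left out and turned positive without knockout array 3 (0.17) or wild type array 2 (0.02). Median centring moved the median change of all genes to -0.041, so values near 0 turned with it. Nr1h3 was at -0.0015 after median centring. Ch25h was at -0.010 after median centring, -0.017 after a second quantile normalization, and -0.050 to 0.078 with 1 array left out, negative without knockout array 2 or wild type array 1 (-0.025).

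Genotypes share replicate numbers, but the same-numbered arrays did not deviate together (correlations of 0.0088, 0.082 and -0.020 across genes), so the numbers were not taken as pairs. With the replicate block, 123 genes were called, Npc1 was at -1.24 (adjusted p = 0.00988), Sparc was at -5.46, and 0 other pathway genes were called. Knockout array 2 correlated best with the wild type array of its own number, and knockout arrays 1 and 3 did not. The deposited values hold no detection calls, so no background level could be set for dim genes.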

Other observations

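The 3 tested genes on either side of Npc1 in the RefSeq gene order, looked up after its values were seen, gave no call by limma. Rmc1, the neighbour on one side, read 6.74, 6.74 and 6.63 in knockouts and 6.95, 6.90 and 7.01 in wild types, a change of -0.25 ± 0.09 (SE; adjusted p = 0.196). Riok3 beyond it was at -0.11 and Tmem241 at 0.18. On the other side Ankrd29 was at 0.18, Lama3 at 0.35 (adjusted p = 0.155) and Ttc39c at 0.23. At an unadjusted p under 0.05, Rmc1 was lower and Lama3 higher, against 10.3% and 8.16% of all genes tested.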
